A study of Mus musculus with 2 samples.

Results

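The small leucine-rich proteoglycans (SLRPs), a family of secreted matrix proteins, were described through 10 genes, Dcn, Bgn, Aspn, Lum, Fmod, Prelp, Kera, Omd, Ogn and Podn. The members were every probe set that the annotation of the Affymetrix Mouse430_2 array pairs with 1 of these symbols and no other symbol, which gave 21 of the 34945 non-control probe sets with a single symbol and all 10 genes of the 18193 on the array. RNA came from mouse embryonic fibroblasts (MEFs), mixed connective tissue cells grown out of dissociated embryos, of C57BL/6 embryos at embryonic day 13.5, kept for 2 weeks without treatment. The groups were wildtype MEFs, with 1 array, and Malat1 knock-out MEFs, also with 1 array. The making of the Malat1 allele, and the number of embryos behind each array, stand unnamed (not given in the sources used here). Since each genotype has a single array, no difference below has a replicate check or a p-value, and 2 arrays set the precision.

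SLRP core proteins are built from leucine-rich repeats that fold into a curved solenoid, and most carry chains of chondroitin or dermatan sulfate (Dcn, Bgn) or keratan sulfate (Lum, Fmod, Kera, Omd). Several bind collagen fibrils and set their diameter and spacing in skin, tendon, bone and cornea, and some also hold growth factors such as TGF-beta in the matrix or bind cell surface receptors. Fibroblasts are a main source of decorin, biglycan and lumican in connective tissue. Here Dcn was higher on the knockout array, Aspn and Fmod were lower, and the remaining measured members differed by at most 0.34 log2 units in either direction.

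Checks of the arrays came first. The brightest Malat1 probe set was at 9.80 in wildtype and 4.53 in knockout MEFs, so the array labelled knock-out lacked most of that signal. Xist, the RNA of the inactive X chromosome, was read in the knockout array alone (4.50 and 11.49), and the Y-linked Eif2s3y in the wildtype array alone (8.57 and 2.81). The wildtype RNA thus had a male pattern and the knockout RNA a female one. Sex and genotype therefore cannot be told apart for any difference below, whether the gene is autosomal or sex-linked. All 14 fibroblast markers, among them Col1a1, Thy1 and S100a4, lay above the floor on both arrays, the floor being the median signal of each array's non-control probe sets (5.39 and 5.44). Over the 19178 measured probe sets (1 symbol, at or above the floor on both arrays) the median difference, knockout minus wildtype, was -0.06 log2 units and the SD was 0.25. The 18 probe sets for spike-in RNA added at hybridization all gave lower signals in the knockout, by a median of -0.23. The only spread these arrays hold is that between probe sets of one gene, whose differences had a pooled SD of 0.20 over 4881 genes, and probe sets of one gene share the RNA sample and are not replicates.

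**Figure D1:**
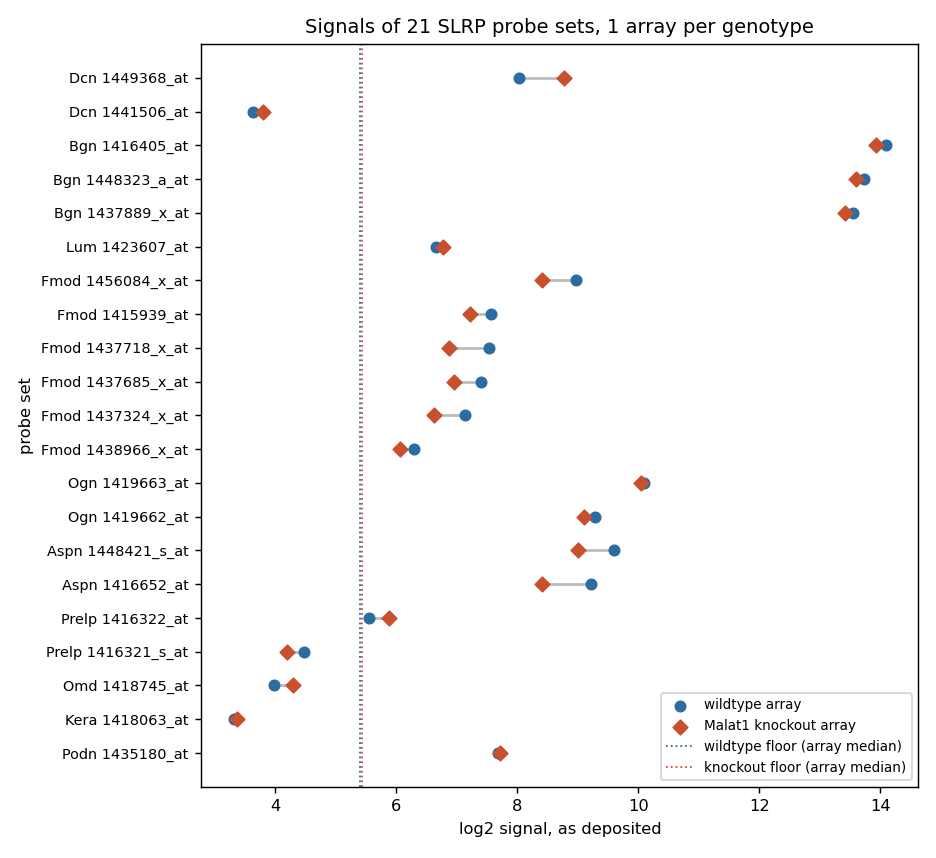
Log2 signals (x axis) of the 21 SLRP probe sets (y axis), with circles for the wildtype array and diamonds for the knockout array; dotted lines mark each array's floor, 5.39 and 5.44. The Dcn diamond at 8.77 lies to the right of its circle at 8.02, both Aspn and all 6 Fmod diamonds lie to the left of theirs, and 4 probe sets lie below the floors; levels of different probe sets cannot be compared.

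Class I SLRPs, whose members Dcn, Bgn and Aspn are close relatives, differed in both directions. Dcn encodes decorin, which binds collagen fibrils and TGF-beta. Its probe set 1449368_at was at 8.02 in wildtype and 8.77 in knockout MEFs, 0.74 log2 units or 1.67-fold higher in the knockout. That difference was higher than those of 99.8% of the measured probe sets, and it stayed between 0.74 and 0.97 under 4 other scalings of the arrays. The second Dcn probe set, 1441506_at, read 3.64 and 3.80, below the floor on both arrays, so decorin rests on 1 measured probe set.

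Aspn encodes asporin, a class I member of the matrix around teeth, cartilage and tendon that binds collagen and TGF-beta and carries a run of aspartate residues. Its probe set 1416652_at was at 9.23 in wildtype and 8.41 in knockout MEFs, a difference of -0.82, or 1.76-fold lower. The other, 1448421_s_at, read 9.59 and 9.01, a difference of -0.59, just past the 1.5-fold that counts here as a call. Both asporin probe sets were therefore lower on the knockout array, by 4.10 and 2.96 times the pooled SD between probe sets. Only 0.626% of measured probe sets had a lower difference than the first. Under the 4 other scalings it remained past 1.5-fold, from -0.75 to -0.59, while the second gave -0.53 to -0.36 and was no longer past it.

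Bgn encodes biglycan, a proteoglycan of bone and skin that can also signal through Toll-like receptors, and its gene lies on the X chromosome. Its 3 probe sets read 14.09 and 13.93, 13.73 and 13.59, and 13.54 and 13.41 in the wildtype and the knockout. The differences of -0.16, -0.14 and -0.13 lay inside the pooled SD between probe sets, and all 3 turned to between 0.07 and 0.10 with the spike-ins set to 0.

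Class II held the member with the most probe sets. Fmod encodes fibromodulin, a keratan sulfate proteoglycan of tendon and cartilage that binds collagen and takes part in fibril assembly. The 6 Fmod probe sets were all lower in the knockout, with differences from -0.66 to -0.23, a median of -0.48 and an SD of 0.15 between them. Probe set 1437718_x_at was at 7.54 in wildtype and 6.88 in knockout MEFs, or 1.58-fold lower, and was the only Fmod probe set past 1.5-fold. The brightest, 1456084_x_at, read 8.97 and 8.41, which is 1.48-fold lower. Of the 6, 5 end in _x_at, a design that can pick up related transcripts. The remaining one, 1415939_at, read 7.57 and 7.21, a difference of -0.36 or 1.28-fold. All 6 differences kept their sign under the 4 other scalings, although the smallest came to -0.0037 with the spike-ins set to 0.

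Lum and Prelp differed the other way from Fmod, by less than 1.5-fold. Lum encodes lumican, which organises collagen fibrils in skin and in the transparent cornea. Its only probe set was at 6.66 in wildtype and 6.77 in knockout MEFs, a difference of 0.12 that lay inside the pooled SD between probe sets. Prelp encodes a proline- and arginine-rich member that anchors basement membranes to the matrix below. Probe set 1416322_at read 5.55 and 5.89, a difference of 0.34 or 1.26-fold, from a wildtype signal just above the floor, and 1416321_s_at read 4.47 and 4.19, below the floor. Prelp therefore rests on 1 measured probe set near the floor.

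The tissue-restricted class II members were not read above the floor. Kera, which encodes keratocan of the corneal stroma, was at 3.31 in wildtype and 3.37 in knockout MEFs. Omd, which encodes osteomodulin of bone and tooth, read 3.98 and 4.29. Signals at this level give no fold.

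Class III and class V were each represented by 1 gene. Ogn encodes osteoglycin, also called mimecan, a small SLRP of bone, cornea and vessel walls. Its probe sets read 10.09 and 10.05, and 9.28 and 9.10, in the wildtype and the knockout. The Ogn differences of -0.04 and -0.18 lay inside the pooled SD, and the first turned positive under each of the 4 other scalings and the second with the spike-ins set to 0. Podn encodes podocan, a class V member of kidney and vessel wall matrix. Its probe set read 7.67 and 7.71, a difference of 0.03 and the smallest of the measured members.

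As a family, 17 of the 21 probe sets, from 8 of the 10 genes, were measured on both arrays. Of these 17, 13 were lower and 4 higher on the knockout array, against 61.7% lower over all measured probe sets. At 1.5-fold, 3 were lower (both Aspn probe sets and 1 of Fmod) and 1 was higher (Dcn). Over all measured probe sets 2.25% were lower and 0.678% higher by that size. The median over the 17 was -0.18, beside -0.06 over all measured probe sets. Fmod makes up 6 of the 17. Without it the median was -0.13 and 7 of 11 were lower, or 63.6%, near the 61.7% over all measured probe sets. Counted by gene, each through its brightest probe set, 4 genes were lower and 4 higher, the median was -0.0045, and 1 gene (Aspn) was lower and 1 (Dcn) higher by 1.5-fold, beside 1.61% and 0.832% of the 11294 measured genes. Under the 4 other scalings the split by gene was 3 lower and 5 higher or, with the spike-ins set to 0, 2 and 6, and Aspn was no longer past 1.5-fold at its brightest probe set. The probe-set counts therefore lean lower than all measured probe sets only with the Fmod probe sets included, and the gene counts do not lean lower. Within the 4 genes that had several measured probe sets (Bgn, Fmod, Ogn and Aspn), all probe sets had the same sign.

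**Figure D2:**
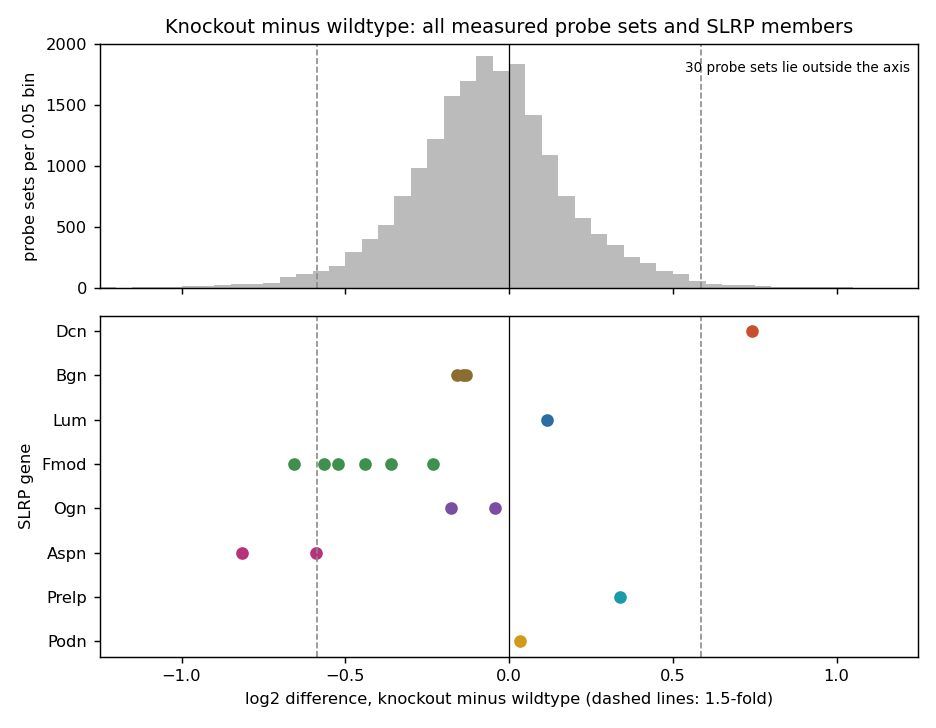
Upper panel, number of measured probe sets (y axis) per 0.05 log2 units of difference, knockout minus wildtype (x axis); lower panel, each measured SLRP probe set as a point by gene, with dashed lines at 1.5-fold. Dcn lies at 0.74, Aspn at -0.82 and -0.59 and Fmod from -0.66 to -0.23, while Bgn, Lum, Ogn and Podn lie between -0.18 and 0.12; 30 probe sets lie outside the plotted range.

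Counts of lower and higher members depended on how the arrays were scaled. With the median difference of all probe sets set to 0, after quantile normalization and after loess centring, 12 of the 17 probe sets were lower and 5 higher. With the spike-ins set to 0, 8 were lower and 9 higher. Over all measured probe sets 50.2%, 47.5%, 49.6% and 21.4% were lower under these scalings, in the same order. Relative to the array the members did not shift, since 12 of the 17 lay below the median of all measured probe sets under each of the 5 scalings. The calls at 1.5-fold went from 3 lower and 1 higher as deposited to 2 and 1 with the median set to 0 and to 1 and 1 under the other scalings. Over all probe sets the lower ones made up 76.8% of those past 1.5-fold as deposited, 58.6% with the median set to 0, 53.1% after quantile normalization, 58.4% after loess centring and 12.7% with the spike-ins set to 0, which moved the median of all measured probe sets to 0.17. Dcn and Aspn probe set 1416652_at were past 1.5-fold under all 5.

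**Figure D3:**
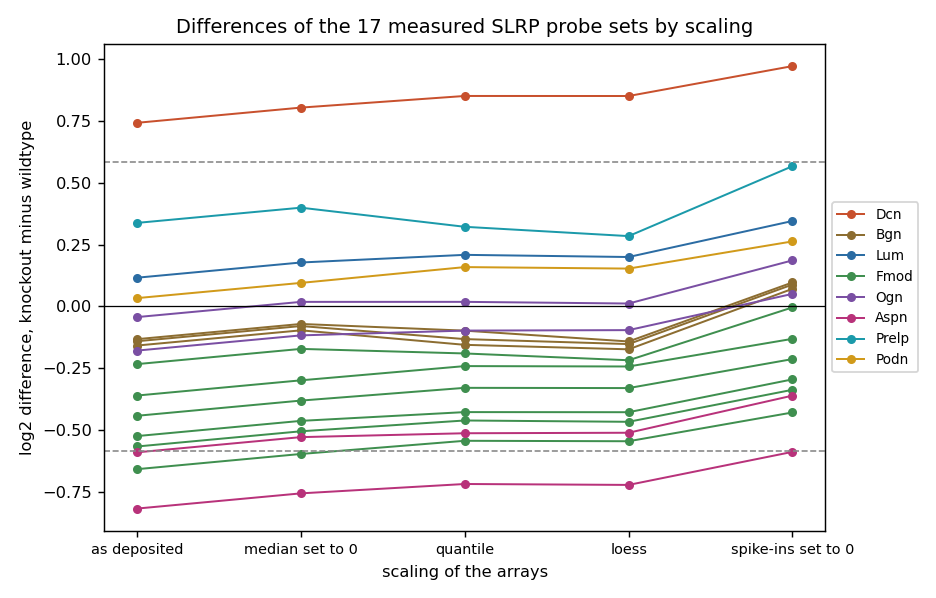
Difference, knockout minus wildtype, in log2 units (y axis) of the 17 measured SLRP probe sets under 5 scalings of the arrays (x axis), 1 line per probe set coloured by gene, with dashed lines at 1.5-fold. Dcn stays between 0.74 and 0.97, Aspn and Fmod stay below 0, the 3 Bgn lines and that of Ogn 1419662_at lie above 0 only with the spike-ins set to 0, and Ogn 1419663_at lies above 0 under the 4 scalings other than as deposited.

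Most SLRP genes sit in clusters, which allowed each to be set beside its chromosomal neighbours. Within each of 3 clusters, measured SLRP genes had unlike differences. On chromosome 10 Dcn differed by 0.74 and the adjacent Lum by 0.12, with Kera and Epyc beyond them below the floor. On chromosome 13 Aspn differed by -0.59 and Ogn by -0.04 at their brightest probe sets, with Omd between them, and Ecm2 beside Aspn, below the floor. On chromosome 1 Prelp differed by 0.34, Fmod by -0.57, and Optc, which encodes opticin, an SLRP of the eye, and read 6.78 and 6.68, by -0.11, a sign that turned with the spike-ins set to 0. None of the 30 nearest measured genes, 3 on each side of the 3 clusters and of Bgn and Podn, passed 1.5-fold. Over all measured genes 1.61% were lower and 0.832% higher by that size, so few or none would be expected among 30. The differences of these neighbours ran from -0.42 (Echdc2, near Podn) to 0.48 (Ppfia4, near Fmod), with a median of -0.06, beside -0.05 over all measured genes. Around the Dcn cluster the neighbours Nudt4, Eea1 and Btg1 differed by -0.09, -0.20 and -0.15 and Atp2b1 by -0.04. Around the Aspn cluster Cenpp differed by -0.07 and Nol8 by -0.21. Beside Bgn on the X chromosome, Haus7, Dusp9, Zfp275 and Slc6a8 differed by -0.11, -0.24, -0.29 and -0.13, and Trex2 and Pnck by 0.34 and 0.30.

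**Figure D4:**
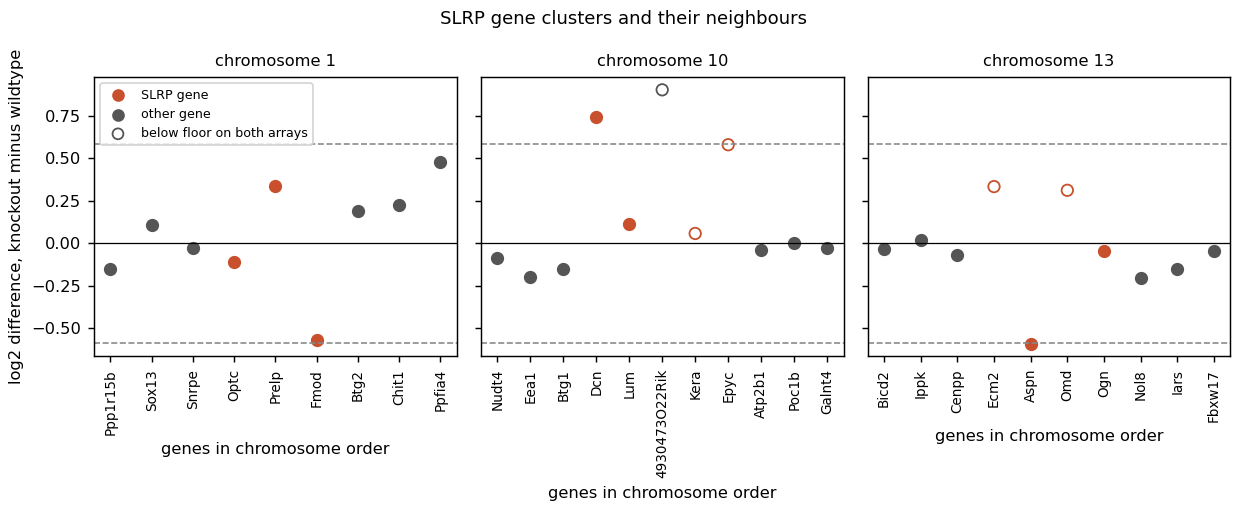
Difference, knockout minus wildtype, in log2 units (y axis) of the genes of the SLRP clusters on chromosomes 1, 10 and 13 and of the 3 nearest measured genes on each side, in chromosome order (x axis, not to scale), each gene by its brightest probe set; open circles lie below the floor on both arrays and dashed lines mark 1.5-fold. Dcn at 0.74, Aspn at -0.59 and Fmod at -0.57 stand apart from the measured flanking genes, which lie between -0.21 and 0.48. The non-SLRP gene 4930473O22Rik, inside the chromosome 10 cluster, is an open circle at 0.90.

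The sequences upstream of 4 members are shown because they pair genes of one cluster with unlike differences, Aspn and Ogn on chromosome 13, with Omd between them, and the adjacent Fmod and Prelp on chromosome 1. They are the 250 bases before the start site in RefSeq's GRCm38.p6 annotation, 5′ to 3′ on the gene's strand, for Aspn at chr13:49544193-49544442 (plus strand), Ogn at chr13:49607765-49608014 (plus), Fmod at chr1:134037004-134037253 (plus) and Prelp at chr1:133921402-133921651 (minus). Capitals mark TATAAA and CCAAT on either strand, and overlapping matches run together.
Aspn: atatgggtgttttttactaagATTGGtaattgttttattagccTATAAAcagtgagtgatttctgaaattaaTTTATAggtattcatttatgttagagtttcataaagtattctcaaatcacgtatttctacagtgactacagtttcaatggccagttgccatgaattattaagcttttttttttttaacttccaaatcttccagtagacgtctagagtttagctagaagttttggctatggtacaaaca
Ogn: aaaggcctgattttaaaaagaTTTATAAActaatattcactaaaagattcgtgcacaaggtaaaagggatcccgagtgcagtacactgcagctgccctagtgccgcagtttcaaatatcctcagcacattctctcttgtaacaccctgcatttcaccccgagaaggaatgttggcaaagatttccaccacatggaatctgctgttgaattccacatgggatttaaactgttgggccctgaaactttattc
Fmod: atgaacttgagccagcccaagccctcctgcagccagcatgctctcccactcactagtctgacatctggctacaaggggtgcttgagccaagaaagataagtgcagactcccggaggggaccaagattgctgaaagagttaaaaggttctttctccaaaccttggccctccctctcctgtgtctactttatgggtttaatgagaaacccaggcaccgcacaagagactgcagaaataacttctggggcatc
Prelp: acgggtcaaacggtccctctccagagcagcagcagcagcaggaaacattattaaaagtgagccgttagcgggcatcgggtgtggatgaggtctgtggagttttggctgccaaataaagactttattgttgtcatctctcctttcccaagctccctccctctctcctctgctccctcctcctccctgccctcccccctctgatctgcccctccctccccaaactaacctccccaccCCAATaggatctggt

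The 4 windows differ in base composition, with 30% G and C for Aspn, 42% for Ogn, 51.2% for Fmod and 55.6% for Prelp, beside a median of 52.4% over 32851 windows of this length. TATAAA was found 2 times each in the Aspn window (207 and 178 bases before the start) and, overlapping on the opposite strands, in the Ogn window (229 and 227 bases before), and in neither Fmod nor Prelp. It was in 12.4% of all windows. CCAAT was found once in Aspn and once in Prelp and in 33.8% of all windows, and GGGCGG in none of the 4 and in 32.7%. Over all 9 windows of the 8 members in the table (Bgn, Fmod, Ogn, Aspn, Prelp, Omd, Kera and Podn), the AP-1 motif TGANTCA and the SMAD motif GTCTAGAC were found in 0 and are in 6.75% and 0.167% of all windows, and the E-box CANNTG was in 6 of the 9 and in 66.2%. Each search covered both strands, and a match or its absence describes the letters in this window only.

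Other genes of the SLRP pathway were followed by lists, each gene by its brightest probe set. Beyond the members, the SLRP and SLRP-like genes were mostly not read. Epyc, Chad, Nyx and Ecm2 lay below the floor on both arrays, and Chadl, a chondroadherin-like protein, differed by 0.17 (6.07 and 6.24). Tsku and Podnl1 were not analysed here.

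The enzymes that make the glycosaminoglycan chains leaned lower on the knockout array as deposited. Of 25 measured genes for chondroitin and dermatan sulfate, 19 were lower and 6 higher, with a median of -0.16. Over all measured genes 59.8% were lower, with a median of -0.05. The split of the 25 was 15 and 10 with the median set to 0, 14 and 11 after quantile and loess scaling, and 9 and 16 with the spike-ins set to 0. Over all measured probe sets 50.2%, 47.5%, 49.6% and 21.4% were lower with the median set to 0, after quantile and loess scaling and with the spike-ins set to 0. Uxs1, which makes the UDP-xylose that starts chondroitin and dermatan sulfate chains, read 10.11 and 9.29, 1.77-fold lower. However, another Uxs1 probe set differed by 0.04. Csgalnact1, which adds the first chondroitin sugar, read 8.81 and 8.06, 1.69-fold lower, with its second probe set at -0.98, and came to -0.52 with the spike-ins set to 0, no longer past 1.5-fold. As deposited Uxs1 and Csgalnact1 were the only genes of the list past 1.5-fold, beside 1.61% of all measured genes lower by that size. Xylt2, which puts the xylose on the core protein, differed by -0.44, and the chondroitin sulfotransferase Chst12 by -0.41. For keratan sulfate, 4 of 6 measured genes were lower, with none past 1.5-fold and a median of -0.17 as deposited, which turned to 0.06 with the spike-ins set to 0. Its sulfotransferases Chst1 and Chst5 differed by -0.46 and -0.24, and the chain-building enzymes B3gnt2 and B4galt1 by -0.24 and -0.11, the last turning positive with the spike-ins set to 0.

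Among collagens and other matrix proteins that SLRPs bind, 18 of 18 measured genes were lower in the knockout (median -0.29), beside 59.8% of all measured genes. That held as deposited, with the median set to 0 and after quantile and loess scaling. With the spike-ins set to 0 it was 12 of 18, beside 21.4% of all measured probe sets lower under that scaling. Of the 18, 5 were lower by 1.5-fold or more, beside 1.61% of all measured genes. Col5a3, a minor fibrillar chain, read 9.80 and 8.83, and Col6a1, a chain of the microfibrillar collagen VI, read 10.80 and 9.85, 1.95-fold and 1.93-fold lower. Col1a1, of type I collagen, differed by -0.95 at its brightest probe set and -0.33 at another, and Col6a3 by -0.82. Decorin, with a difference of 0.74, thus went the other way from every measured collagen partner on the list as deposited. All 7 measured collagen cross-linking enzymes were lower as deposited, with a median of -0.31 and none past 1.5-fold, and 6 or 4 of the 7 under the other scalings. The lysyl hydroxylase Plod1 differed by -0.46, and the lysyl oxidase relatives Loxl3, Loxl4 and Loxl1 by -0.41, -0.33 and -0.31, while a second Loxl4 probe set differed by 0.52.

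Of 17 measured growth factors and receptors that SLRPs bind, 13 were lower and 4 higher as deposited (median -0.10). The split was 9 and 8 with the median set to 0, 10 and 7 after quantile and loess scaling, and 8 and 9 with the spike-ins set to 0. Over all measured genes, for comparison with this and the next lists as deposited, 59.8% were lower and 1.61% lower by 1.5-fold or more. For the other scalings, 50.2% of all measured probe sets were lower with the median set to 0, 47.5% after quantile and 49.6% after loess scaling. With the spike-ins set to 0 it was 21.4%. Pdgfra, a platelet-derived growth factor receptor of mesenchymal cells, read 8.20 and 7.47, 1.66-fold lower, and was the only one past 1.5-fold, a call lost with the spike-ins set to 0. Pdgfrb differed by -0.37 and the Toll-like receptor Tlr4 by -0.35. Kdr, the endothelial VEGF receptor that decorin can bind, differed by 0.47. On a list of proteinases that cut or process SLRPs, 10 of 13 measured genes were lower as deposited (median -0.25). It was 9 of 13 with the median set to 0 and after quantile and loess scaling, and 8 with the spike-ins set to 0 (median -0.016). The list also holds Pcolce, a proteinase enhancer and not itself a proteinase, whose difference of -0.25 was the deposited median. The aggrecanase Adamts4 read 7.98 and 7.37, 1.53-fold lower, with its other probe set at -0.19, and was not past 1.5-fold under the 4 other scalings. The collagenase Mmp13 differed by -0.54, the membrane-bound Mmp14 by -0.42 and the gelatinase Mmp9 by 0.46. Among other proteoglycans 11 of 14 measured genes were lower as deposited (median -0.15). It was 9 of 14 with the median set to 0 and after quantile and loess scaling, and 5 with the spike-ins set to 0 (median 0.08). Prg4, lubricin of joint surfaces, read 8.05 and 7.01, 2.06-fold lower, while the heparan sulfate proteoglycans Gpc1, Agrn and Hspg2 differed by -0.55, -0.40 and -0.28.

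**Figure D5:**
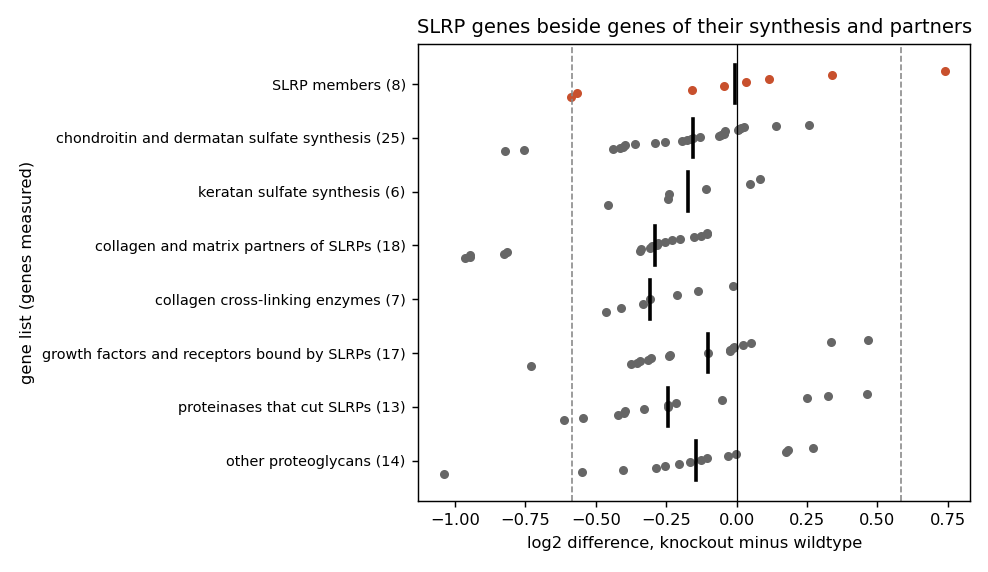
Difference, knockout minus wildtype, in log2 units (x axis) of the measured genes (points) of the SLRP members and 7 related gene lists (y axis, number measured in brackets), with the list median as a black bar and dashed lines at 1.5-fold. The SLRP genes spread from -0.59 to 0.74 around -0.0045, while all 18 collagen and matrix partners lie below 0 with a median of -0.29.

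MEF cultures hold several cell types, and in such bulk RNA fewer cells of a type and less RNA per cell cannot be told apart. Marker lists of cells that make particular SLRPs gave the following values. Of 4 measured cartilage markers 3 were lower (median -0.28), with Sox9 at -0.34, Col2a1 at -0.34 and Col11a1 at -0.23. The linear signals of the 11 listed markers summed to 3602 and 3011 in wildtype and knockout MEFs. Col11a1 and Col2a1, at 11.07 and 10.05 in the wildtype, made up most of that sum. Of the 11, 5 lay below the floor on both arrays and 2 above it on the wildtype array alone. The 5 bone markers on the array were below the floor on both arrays, except 1 that was above it on the knockout array alone. Of 4 measured tendon markers 3 were lower as deposited, Mkx by -0.19, Egr1 by -0.11 and Kctd1 by -0.03. Tnmd, tenomodulin of tendon cells, was higher, at 11.06 and 11.43, a difference of 0.38. The tendon median of -0.07 turned positive after quantile and loess scaling and with the spike-ins set to 0. Of the other listed tendon markers, 1 was above the floor on the wildtype array alone and 1 on the knockout array alone. The fibroblast markers themselves had a median of -0.26, with 11 of 14 lower (59.8% of all measured genes were) and Pdgfra and Col1a1 past 1.5-fold (1.61% of all measured genes were lower by that size). With the spike-ins set to 0 that median was -0.031, 9 of the 14 were lower and 1 was past 1.5-fold. Under that scaling 21.4% of all measured probe sets were lower and 0.641% lower by 1.5-fold or more. Their summed signal was 106775 and 94642. The 9 measured macrophage and leukocyte markers had a median of -0.37, 7 of them lower, with linear signals of all 10 listed markers summing to 3961 and 3185, Mrc1 at -0.59 and Ptprc at -0.42. Epithelial markers were higher in 5 of 5 measured genes (sums over all 10 listed markers of 1002 and 1288, Cldn4 at 1.13 and Krt18 at 0.47), and endothelial markers in 5 of 5 (sums over all 8 listed markers of 1109 and 1610, Emcn at 1.47 and Flt1 at 0.41). Among all 11294 measured genes 4425 were higher, and 0.832% were higher by 1.5-fold or more. The endothelial count holds at the brightest probe sets, and another Egfl7 probe set differed by -0.25. The defining endothelial markers Pecam1, Cdh5 and Tie1, and the epithelial Cdh1, lay below the floor on both arrays. Measured muscle, adipocyte, neural and corneal stroma markers had medians of -0.05, 0.28, 0.28 and 0.27 over 6, 4, 7 and 2 genes, the muscle median turning positive under the 4 other scalings. The part of any of these cell types in the SLRP differences was not tested.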

How the data were processed

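Each deposited value, 1 per probe set for either array, was taken here as log2 signals from their range (2.09 to 14.71), since the summarization, normalization and software stand unnamed (not given in the sources used here). Per the labels' protocols, RNA was extracted with Trizol and 100 ng was amplified and biotin-labelled with a 3′ kit. Groups came from the genotype label. The difference is the knockout minus the wildtype value as deposited, since the median over measured probe sets was within 0.1 of 0. A probe set was measured when it reached the floor on both arrays, which stands in for detection calls, and a gene outside the members was its brightest probe set. With 1 array per genotype no test across probe sets was made, and a call is a difference of 1.5-fold or more. Named genes are all member probe sets, the neighbours, and up to 4 measured genes with the largest difference per list. A few others (Pecam1, Cdh5, Tie1, Cdh1, Pcolce, 4930473O22Rik and second probe sets) were named after their values were seen. No gene is named for a pattern like a member's, because 2 arrays give 1 difference per gene. The members and lists were chosen with earlier results of these data known. Gene order and symbols came from RefSeq (GRCm38.p6), in which all 10 members matched by gene ID, and promoter windows were found for 8. The alternatives were other scalings, floors, added constants, call sizes, probe set types and gene summaries, and scaling on the spike-ins and leaving out Fmod were added after seeing the data. The steps were tested on simulated data and run with Python 3.11.15, pandas 2.3.3 and statsmodels 0.14.6.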

Additional observations from a re-analysis of the deposited data

How the results depend on the processing

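No paired analysis was possible because there is only 1 array a genotype, and leaving out an array would leave no comparison. A summary value counts as moved here when it shifts by more than the pooled SD between probe sets (0.20) and a count when it changes by more than 1.5 times. The median over the member probe sets (-0.18) reversed to 0.051 with the spike-ins set to 0, a scaling that moved the median over all probe sets to 0.17. The 13 lower probe sets, of 17 measured, became 8 with the floor at the 75th percentile, where only 9 were measured. They became 8 of 17 with the spike-ins set to 0. Without _x_at, _s_at and _a_at probe sets they became 5, where 9 were measured. Over all measured probe sets 66.2%, 21.4% and 62.5% were lower under these settings, in the same order. The 4 probe sets past 1.5-fold became 2 after quantile normalization, loess centring, adding 64 to linear signals, leaving out those probe set types or setting the spike-ins to 0. With a smaller size for a call (tried among the alternatives) they became 9, 7 of them lower, beside 12.1% of all measured probe sets lower and 5.52% higher by that size, and with the call at 2-fold 0. The other 24 of the 35 recomputed family summaries stayed within these limits. Among 154 recomputed single-probe-set values none of the called ones changed sign, and the 10 that were no longer past 1.5-fold belonged to Aspn 1448421_s_at and Fmod 1437718_x_at. No depth exists for array signals, and the Kera and Omd values and 1 probe set each of Dcn and Prelp lie below the floor.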

Other observations

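Exactly equal values on both arrays were found for 1210 non-control probe sets, 200 of them measured ones with a single symbol, and for 0 of the 21 SLRP probe sets. The step behind equal values was not tested. Differences also varied with signal over the 19178 measured probe sets. With the probe sets split into 5 bins by mean signal, the median was 0.03 in the dimmest bin and -0.12 in the middle one, and 4.93% of bin 2 but 1.02% of the brightest bin passed 1.5-fold. Loess centring, which takes this trend out, gave 0.85 for Dcn, -0.72 and -0.51 for Aspn and -0.54 to -0.22 for Fmod.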
